A study of Mus musculus with 9 samples.

Results

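Carboxylesterases are serine hydrolases that cleave esters and amides in drugs, toxins and lipids. Most of them sit in the lumen of the endoplasmic reticulum (ER) of liver and gut cells, and some are secreted into blood. The mouse genome holds expanded Ces1 and Ces2 families, whose members were followed here in livers that lack SND1 or carry a mutation in its Tudor domain. The members are the genes that the deposited table names Ces1b, Ces1c, Ces1d, Ces1e, Ces1f, Ces1g, Ces2a, Ces2b, Ces2c and Ces2e. All 10 were found among the 19944 genes of the table, 6 in the Ces1 family and 4 in the Ces2 family.

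The protein SND1 joins nuclease-like repeats to a Tudor domain, a module that binds methylated arginine. The libraries came from livers of male FVB mice that were 60 days old, kept on normal chow under light cycles of 12 h. The 3 groups are wild type for Snd1 (WT), Snd1 knockout (KO) and knock-in of a Tudor domain mutant of Snd1 (KI), with 3 libraries each. Names such as KO_1 join the group and the number in the title. How the KO allele was built and which residue the KI allele changes are not given in the sources used here. The labels do not say whether mice shared litters, so p-values measure only the spread between these 9 samples.

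Ces1 and Ces2 enzymes differ in the substrates they are known for. Ces1 enzymes favour esters with a large acyl group and include lipases that act on stored triglyceride, whereas Ces2 enzymes favour a small acyl group and a large alcohol. In hepatocytes, lipid released by these enzymes can be repackaged into very low density lipoprotein (VLDL).

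In the GRCm38 build with GENCODE M21 annotation, the members form 2 clusters on chromosome 8. The Ces1 members lie on the minus strand, from the start of Ces1b at 93056728 to the end of Ces1g at 93337308. The Ces2 members lie on the plus strand, from the start of Ces2a at 104734003 to the end of Ces2e at 104934672. All 10 are annotated as protein coding. Coding sequences of Ces1 members were 74.5% to 91.2% identical over 15 pairs, with Ces1b and Ces1c the closest. Ces2 members were 83.0% to 92.1% identical over 6 pairs, with Ces2b and Ces2c the closest.

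The ends of the coding sequences are shown because this is where ER-resident and secreted carboxylesterases are known to differ. The last codons of ER-resident members encode a retrieval signal. Each line gives the 30 coding bases before the stop codon, 5′ to 3′ on the coding strand of the GENCODE M21 transcript, and capitals mark the last 12 bases.
Ces1b: acagaccctactgagcacAGAGAACACAAA
Ces1c: acagaccctactgaacacACAGAACACAAA
Ces1d: aggccatcccacagggaaCATGTTGAGCTC
Ces1e: aagcaactgccgacagaaCACACTGAGCTG
Ces1f: aaacaaccccagccatacCACAATGAGCTG
Ces1g: aggtcatcccatagggaaCATGTTGAACTG
Ces2a: aagggttctcaggacaagCATGCAGAGCTG
Ces2b: agggcttctcaggacaagCACACGGAGCTT
Ces2c: aaggcttctcaggacaagCACAGGGAGCTT
Ces2e: aaggggtctcaggagaggCACAAAGAGTTG
The last codon is AAA in Ces1b and Ces1c. It is CTC, CTG, CTT or TTG, which are synonymous codons, in the other 8 members. Ces1c encodes the carboxylesterase that mice are known to secrete into plasma.

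The libraries held 59678412 to 66384374 recovered reads each, so counting error is small for the abundant members. Snd1 had 6951, 8446 and 6512 normalized counts in WT, 227, 414 and 359 in KO, and 5373, 7941 and 5595 in KI. Its log2 fold change was -4.48 ± 0.23 in KO against WT (SE, limma adjusted p = 8.82e-06) and -0.23 in KI against WT (adjusted p = 0.745). The cell type label reads hepatocyte while the tissue is liver, and all 10 hepatocyte markers on the list used were detected in every library. They took 7.13% to 9.44% of reads in WT, 5.35% to 7.84% in KO and 5.02% to 8.07% in KI. Of the 15 markers of exocrine pancreas, none passed the test in any comparison, but their summed share was 1.26% in WT_3, 0.522% in KI_1 and 5.99% in KI_3. It was 0.00175% to 0.00525% in the other 6 libraries, and Pnlip, Pnliprp1, Cela3b, Try4, Try5, Clps and Cel were at 0 in every KO library.

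KO_1 stood apart from the other KO libraries. Acute phase genes, which encode plasma proteins made in inflammation, took 7.65% of reads in KO_1, 19.6% in KO_2 and 20.5% in KO_3. Their share was 1.81% to 1.99% in WT and 1.48% to 2.14% in KI. Of the 22 genes on that list, 21 were higher in KO than in WT, and none passed in KI against WT. Of all genes tested, 8.83% were called in either direction in KO against WT and 0.0263% in KI against WT. The part of the acute phase difference in the carboxylesterase values was not tested.

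KO livers held less carboxylesterase transcript than WT livers. All 6 Ces1 members and 2 of the 4 Ces2 members, Ces2a and Ces2c, were lower by limma at an adjusted p under 0.05. That is 8 of 10 members, where 4.2% of the 15238 genes tested were lower and 8.83% were called in either direction. For the same 8 members every KO library lay below every WT library, which held for 14.2% of all genes tested. The median log2 fold change was -2.89 over the 10 members and 0.001 over all genes. In bulk liver, fewer cells of a type and less RNA per cell cannot be told apart.

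**Figure D1:**
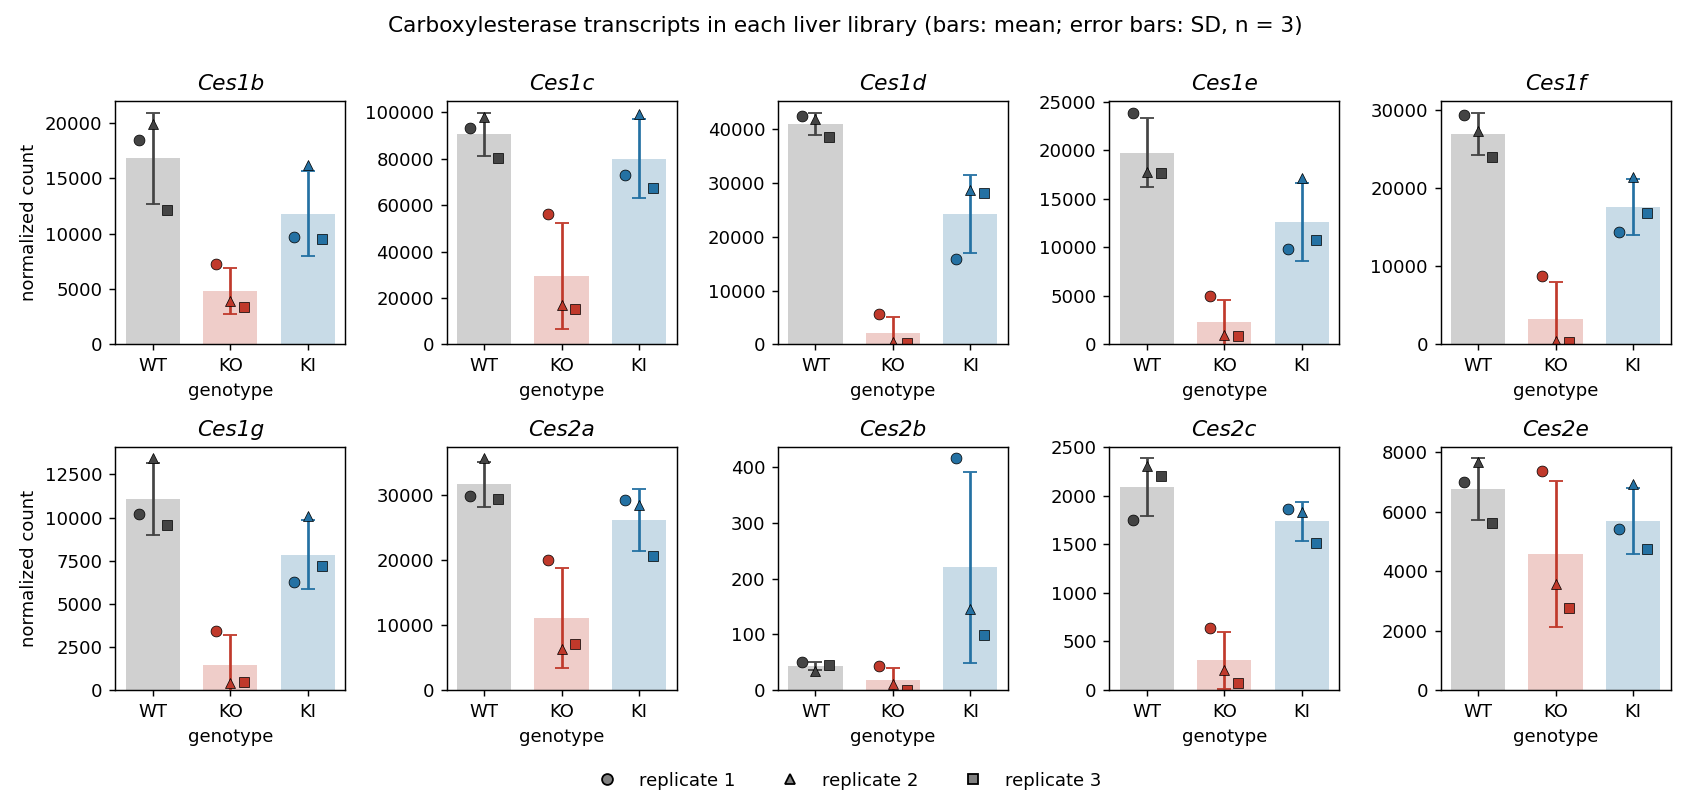
Normalized count of each carboxylesterase gene (y axis, a separate scale per panel) by genotype; bars are means, error bars are SD (n = 3) and symbols are the single libraries. In all panels KO replicate 1 is the highest KO library, and Ces2b is the one gene whose KI libraries all lie above the WT libraries.

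Among the lipid hydrolases of the Ces1 family, Ces1d had the largest estimated decrease. Ces1d encodes triacylglycerol hydrolase, which mobilizes stored triglyceride for VLDL assembly. Its normalized count was 42380, 41757 and 38481 in WT, 5557, 388 and 306 in KO, and 15893, 28695 and 28161 in KI. The 3 groups did not overlap, with KO at the bottom and KI between. KO was 46.8-fold lower than WT on the log2(value + 1) scale, and the log2 difference was -5.55 ± 0.86 (SE; adjusted p = 0.0048 by limma). The ratio of the group means was 19.6, and the log2 difference was -6.89 without KO_1, -4.8 without KO_3 and -4.29 by edgeR. Ces1f, which encodes a related lipid hydrolase, had 29371, 27356 and 24066 in WT, 8758, 492 and 347 in KO, and 14386, 21482 and 16864 in KI. Ces1f thus kept the same order of groups, and KO_1 lay far above the other KO libraries. Its log2 fold change in KO was -4.55 ± 0.94 (adjusted p = 0.0164), a 23.4-fold decrease. The ratio of the group means was 8.42, and the log2 fold change was -6.02 without KO_1, -3.94 without KO_2, -3.69 without KO_3 and -3.07 by edgeR.

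Ces1g, whose loss is known to raise liver and blood lipids in mice, had 10214, 13429 and 9574 in WT, 3431, 418 and 461 in KO, and 6251, 10118 and 7171 in KI. All KO values were below all others, while KI and WT overlapped. The KO decrease was 12.6-fold, with a log2 fold change of -3.65 ± 0.65 (adjusted p = 0.00864). Ces1e encodes egasyn, which holds β-glucuronidase in the ER. Its counts were 23888, 17773 and 17662 in WT, 4945, 977 and 860 in KO, and 9848, 17196 and 10795 in KI. KI_2 came close to the WT libraries without reaching them, and KO lay below both groups. In KO the decrease was 12.2-fold, with a log2 fold change of -3.60 ± 0.55 (adjusted p = 0.00437).

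The closely related pair Ces1b and Ces1c fell by smaller amounts. Ces1c, the gene of the plasma esterase, had 93380, 98194 and 80303 in WT, 56012, 17016 and 15359 in KO, and 73051, 99352 and 67603 in KI. KI_2 lay above every WT library and the other 2 KI libraries below, and KO_1 lay far above the other KO libraries. The log2 fold change in KO was -1.88 ± 0.42 (adjusted p = 0.0231), which is 3.69-fold lower. Ces1b had 18438, 19911 and 12160 in WT, 7242, 3912 and 3355 in KO, and 9680, 16222 and 9537 in KI. It was 3.61-fold lower in KO, with a log2 fold change of -1.85 ± 0.31 (adjusted p = 0.00705). These are also the members whose coding sequence ends in AAA, shown above. The other 4 Ces1 members were 12.2-fold to 46.8-fold lower. The Ces2 members do not follow this split: Ces2a and Ces2e, which end in CTG and TTG, had estimates of 3.28-fold and 1.61-fold. The comparison of coding ends was made after the values were seen, and no test was made of it.

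Of the Ces2 members, Ces2a was the most abundant. It encodes a liver hydrolase of drugs and glycerides, and had 29856, 35637 and 29297 in WT, 19916, 6321 and 7027 in KO, and 29203, 28486 and 20630 in KI. KO was below WT throughout, and the highest KI library was just under the lowest WT library. The KO decrease was 3.28-fold, a log2 fold change of -1.71 ± 0.37 (adjusted p = 0.0191). Ces2c, which encodes a lipase of triglyceride and diglyceride, had 1753, 2310 and 2207 in WT, 637, 202 and 70.6 in KO, and 1867, 1829 and 1508 in KI. KO did not overlap with the others, and KI overlapped WT. Ces2c was 9.89-fold lower in KO, with a log2 fold change of -3.31 ± 0.59 (adjusted p = 0.00888).

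Ces2e and Ces2b did not pass in KO against WT. Ces2e, expressed in liver and gut, had 7003, 7664 and 5634 in WT, 7381, 3567 and 2773 in KO, and 5432, 6922 and 4739 in KI. KO_1 lay inside the WT range and the other KO libraries lay below it. The log2 fold change was -0.68 (95% interval -1.37 to 0.00, adjusted p = 0.2). Ces2b, the least abundant member, had 49.9, 34.7 and 44.1 in WT, 42.6, 10.1 and 0 in KO, and 416, 146 and 98.6 in KI. KO_3 had no read for Ces2b, and KO_1 was within the WT range. Its log2 fold change in KO was -2.47 (95% interval -4.94 to 0.01, adjusted p = 0.201).

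The library KO_1 held the highest KO value for each of the 10 members. For Ces1d its log2 deviation from the WT mean was -2.88, against -6.71 in KO_2 and -7.06 in KO_3. For Ces1f the deviations were -1.62, -5.77 and -6.27, and for Ces2e they were 0.14, -0.91 and -1.27. Without KO_1 all 10 members were lower than in WT, and the log2 fold change was -4.64 for Ces1g, -4.41 for Ces1e, -4.11 for Ces2c, -3.7 for Ces2b and -2.48 for Ces1c. Without KO_3 it was -2.53 for Ces2c and -0.98 for Ces2b, and edgeR gave -2.94 for Ces1g and -1.29 for Ces2b. Over all 22 fits, including that one, the adjusted p ranged from 0.0235 to 0.562 for Ces2b and from 0.00408 to 0.474 for Ces2e. Ces1c passed in 14 of 22 fits, Ces1f in 15 of 21 and Ces2a in 16 of 22. The other 5 called members passed in all fits that gave them an adjusted p, except the one without pancreatic transcripts. DESeq2 gave no adjusted p for Ces1d, Ces1f and Ces1g. Without KO_2, or without any single WT library, 5 members passed, and without KO_3 6 passed. The share of all genes called, 8.83% with all libraries, moved as well. It was 3.29% without KO_2, 3.5% to 4.01% without a WT library, 5.11% without KO_3 and 16.5% without KO_1. The log2 fold change stayed negative for every member in every fit run. Without the 3 libraries with pancreatic transcripts the median over the members was -2.85, but none of the 10 passed, and 0.197% of all genes did.

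**Figure D2:**
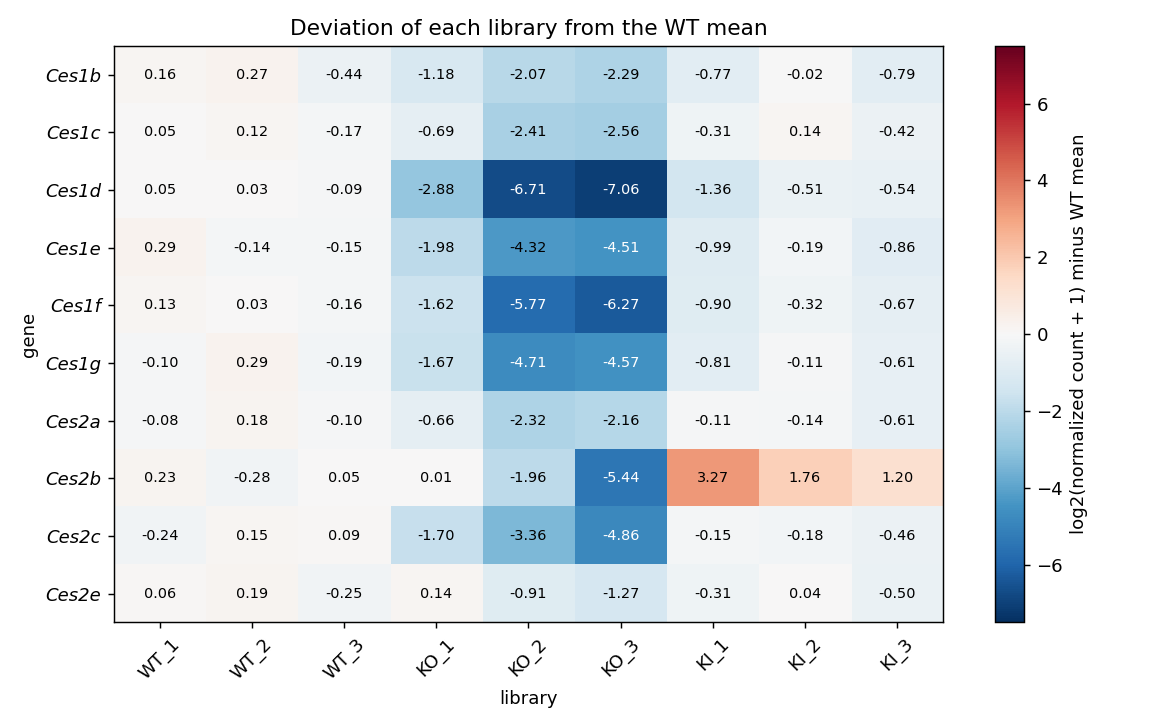
Heat map of the log2 deviation of each carboxylesterase gene (rows) in each library (columns) from its mean in WT, on the log2(normalized count + 1) scale; blue is below and red above the WT mean, and the number in each cell is the deviation. KO_2 and KO_3 are the deepest blue, down to -7.06 for Ces1d, and Ces2b is red in the 3 KI libraries.

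On the log2 scale of the limma estimates, KI livers differed from WT livers by smaller amounts than KO livers did. For Ces2b this depended on the fit: edgeR gave -1.29 in KO and 2.36 in KI, and a pseudocount of 10 gave -1.26 and 1.88. None of the 10 members passed in KI against WT, where 0.0263% of all genes tested were called. None had an unadjusted p under 0.05 either, as 1769 of the 15238 genes did. EdgeR and DESeq2 on recovered reads each called 0 members, and DESeq2 gave no adjusted p for 3 of them. The fold change was negative for 9 members and positive for Ces2b. The median was -0.40 on the log2 scale, against 0.004 over all genes. Ces1d, Ces1e, Ces1f and Ces2a had every KI library below every WT library, 4 of 10 members where 10.2% of all genes tested did so.

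The intervals leave room for sizeable differences in KI. They use a spread per gene estimated over all 3 groups, including KO, where KO_1 stood apart. With only KI and WT in the fit, no member passed by limma either. The adjusted p was then 0.17 for Ces1d and 0.14 for Ces1f, and ran from 0.131 for Ces2b to 0.662 for Ces1c. For Ces1d the log2 fold change of KI against WT was -0.80 (95% interval -2.72 to 1.12, adjusted p = 0.769). For Ces1b it was -0.53 (-1.22 to 0.17, adjusted p = 0.564), and for Ces1e it was -0.68 (-1.90 to 0.54, adjusted p = 0.683). The smallest was that of Ces1c, at -0.20 (-1.13 to 0.74, adjusted p = 0.899). Ces1c turned to 0.05 without WT_3, KI_1 and KI_3, the libraries with pancreatic transcripts.

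Ces2b went the other way. Its KI values of 416, 146 and 98.6 were all above the highest WT value of 49.9, which held in this direction for 9.47% of genes tested. The recovered reads behind them were 388, 160 and 88 in KI and 52, 36 and 44 in WT. The log2 fold change was 2.08 (95% interval -0.40 to 4.55), with an adjusted p of 0.517, and it did not pass under any alternative run. KI_1 held the highest value, and it is also a library with pancreatic transcripts. KI_2, at 146, had 0.00514% of reads from pancreas markers. By position, 9.56% of the distinct 50-base stretches of Ces2b occur in another annotated gene, mostly Ces2c, and 0.09% of the 100-base stretches do.

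**Figure D3:**
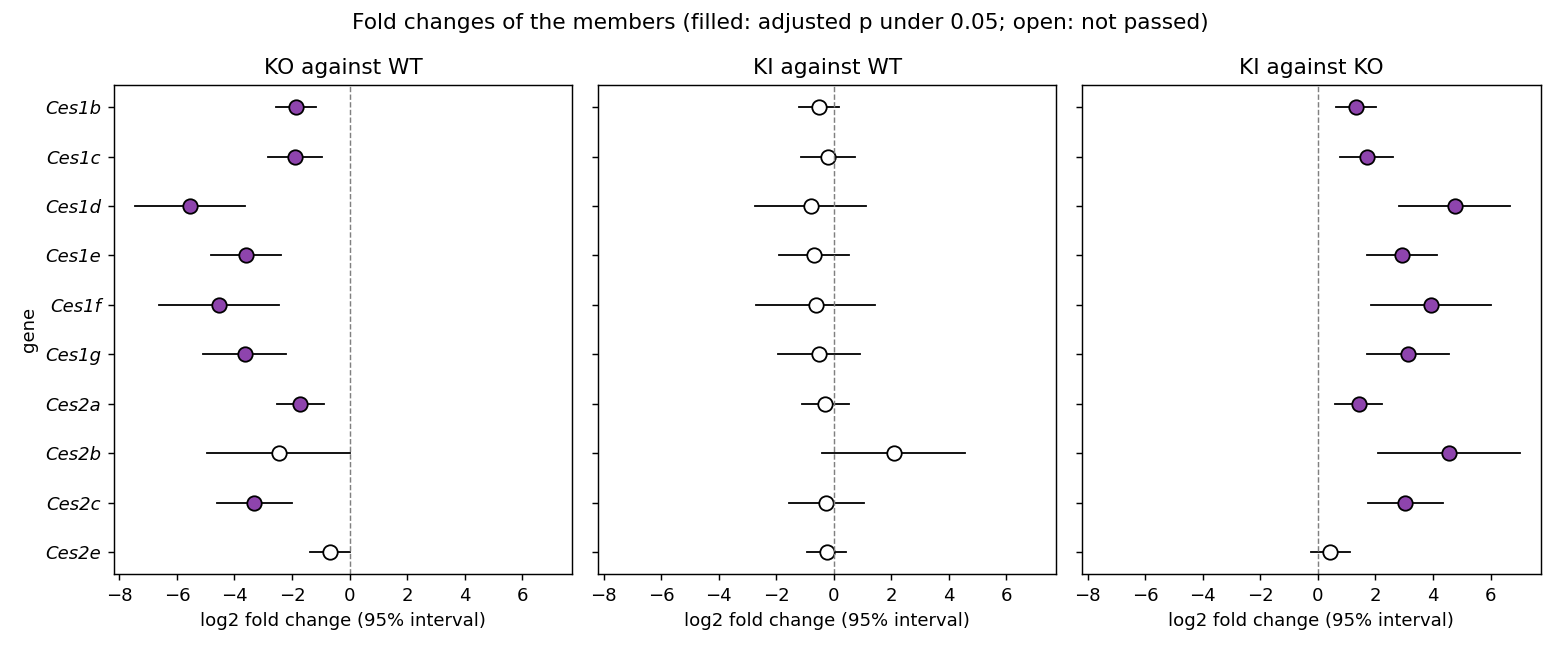
Log2 fold change of each carboxylesterase gene (y axis) in the 3 comparisons, with 95% intervals from limma; filled points passed at an adjusted p under 0.05 and open points did not. KO lies left of 0 against WT for all 10 genes, every interval of KI against WT includes 0, and KI lies right of 0 against KO.

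Set directly against KO, the KI livers held more carboxylesterase transcript. This comparison shares its KO libraries with the first, so its values are not separate evidence on KO. In KI 9 of 10 members were higher, where 3.6% of all genes tested were higher and 8.45% were called in either direction. The same 9 had every KI library above every KO library, which held for 12.3% of genes. The log2 differences ran from 1.33 for Ces1b (adjusted p = 0.0301) to 4.75 for Ces1d (adjusted p = 0.0106). Ces2b, which passed in neither comparison with WT, was higher by 4.54 (adjusted p = 0.0348), and Ces2c by 3.04 (adjusted p = 0.0131). The size for Ces2b rests on few KO reads: it was 3.14 with a pseudocount of 10, 3.65 by edgeR, 3.05 without KO_3, 3.95 without KI_1 and 5.78 without KO_1. Over the fits that gave an adjusted p the difference ran from 3.55 to 6.08 for Ces1d, from 2.46 to 5.39 for Ces1f, from 2.45 to 4.13 for Ces1g and from 2.26 to 3.84 for Ces2c, with the highest value always without KO_1. Ces2e differed by 0.43 (95% interval -0.25 to 1.11, adjusted p = 0.425). These calls depended on single libraries: 0 members passed without KO_2, 2 without KI_1, 3 without KI_3, and 4 without KI_2, KO_3 or WT_1. With WT_2 or WT_3 left out 6 passed, and with KO_1 left out 10. The share of all genes called, 8.45% with all libraries, moved as well. It was 2.63% without KO_2, 3.16% without KI_1, 3.51% without KI_3 and 15.1% without KO_1. For the other libraries left out it was 5.36% to 7.3%. EdgeR called 3 members and 7.88% of all genes, and the fit with only the groups compared called 3 and 3.99%. The fit with the pancreas level as a covariate called 2 members and 1.87% of all genes. Without the libraries with pancreatic transcripts, which leaves 1 KI library, the median difference over the members was 3.27.

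Summed over the 6 members, the Ces1 family had 217672, 218419 and 182245 normalized counts in WT, 85945, 23204 and 20687 in KO, and 129110, 193066 and 140131 in KI. Ces1 took 0.339% of all reads in WT, 0.0696% in KO and 0.239% in KI. The WT mean was 4.76 times the KO mean, and 2.4, 8.88 and 9.96 times KO_1, KO_2 and KO_3. Without KO_1 the WT mean was 9.39 times the KO mean. Summed over 4 members, Ces2 had 38662, 45646 and 37182 in WT, 27977, 10100 and 9871 in KO, and 36918, 37384 and 26976 in KI. Its WT mean was 2.53 times the KO mean, or 4.06 times without KO_1, and 1.2 times the KI mean. The Ces2 sum thus stood nearer to WT in KO than the Ces1 sum did.

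The shares of the members in each sum are given as a description, with no test. Ces1c made up 44.0% ± 1.03 of the Ces1 sum in WT (SD, n = 3 in each group), 70.9% ± 5.0 in KO and 52.1% ± 4.2 in KI. Ces1d made up 19.9% ± 1.07 in WT, 3.21% ± 2.82 in KO and 15.8% ± 3.97 in KI. Together Ces1b and Ces1c held 51.4%, 54.1% and 50.7% in the WT libraries and 73.6%, 90.2% and 90.5% in the KO libraries. What remained of the Ces1 sum in KO was thus mostly transcript of this pair. Within the Ces2 sum, Ces2a held 78.0% ± 0.786 in WT and 68.3% ± 4.97 in KO, while Ces2e held 16.7% ± 1.48 and 29.9% ± 4.74. In KI, Ces2a and Ces2e had mean shares of 77.3% ± 1.6 and 16.9% ± 1.98, near the WT means, with a wider spread. Ces2a held 79.1%, 76.2% and 76.5% in the KI libraries and 77.2%, 78.1% and 78.8% in the WT libraries. Ces2b was 0.108% ± 0.0281 of the Ces2 sum in WT and 0.628% ± 0.433 in KI.

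**Figure D4:**
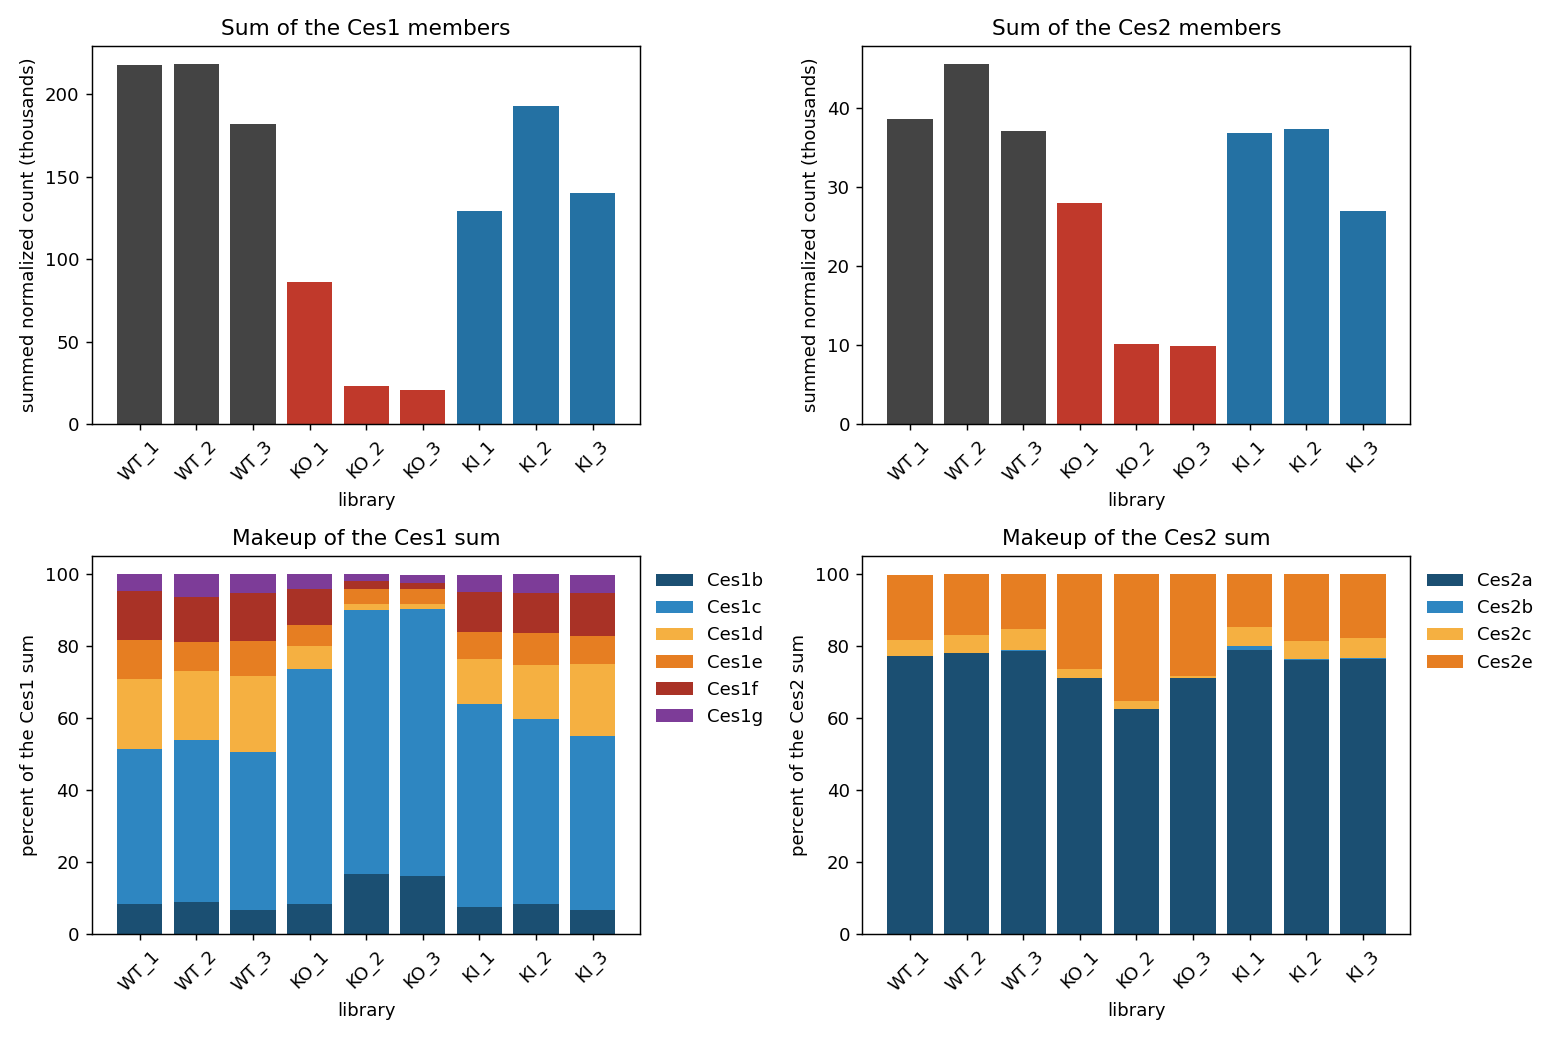
Top, summed normalized count of the 6 Ces1 genes and the 4 Ces2 genes in each library, 1 bar per library; bottom, the percent of that sum held by each gene. In KO_2 and KO_3 the Ces1b and Ces1c segments fill 90.2% and 90.5% of the Ces1 sum, and the Ces2e segment is wider in the KO libraries than in the others.

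Levels of different genes were compared as normalized counts per kilobase of merged exons. In WT the order was Ces1c (39012 per kb), Ces1d (17253), Ces2a (13394), Ces1e (9033), Ces1b (8572), Ces1f (8198), Ces1g (4637), Ces2e (2507), Ces2c (910) and Ces2b (12.6). Neighbours in this order did not overlap across the WT libraries, except that Ces1e, Ces1b and Ces1f could not be ordered. With the length of the main transcript, an alternative chosen after seeing the data, Ces1f reached 13983 per kb and moved to the fourth place, since its merged exons are 3285 bases and its main transcript 1926. In KO the order became Ces1c (12683 per kb), Ces2a (4700), Ces1b (2463), Ces2e (1695), Ces1e (1033), Ces1f (974), Ces1d (879), Ces1g (602), Ces2c (132) and Ces2b (5.16). Ces1d thus went from the second place in WT to the seventh in KO. In KO the ranges over the libraries overlapped for all neighbours except Ces2c and Ces2b. KO_1 was the highest KO library for each member, which widens these ranges. The order within single libraries was not compared. In KI, Ces1c was again first at 34439 per kb, followed by Ces2a at 11067 and Ces1d at 10236, which overlapped.

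Reads from near-identical copies carry an uncertainty, since the authors' counting rule for them is not given in the sources used here. Of the distinct 50-base stretches in each member's main transcript, 42.22% occur in another gene for Ces2c and 22.24% for Ces2a. The share was 16.98% for Ces1c and 11.59% for Ces1b. For Ces1d, Ces1e, Ces1f, Ces1g and Ces2e the share was 1.28% to 3.36%. With 100-base stretches it was 15.98% for Ces2c, 10.75% for Ces2a and at most 1.39% for the others. Ces2c shares its stretches mainly with the pseudogenes Ces2d-ps, Gm8798 and Gm6831, and Ces2a with Gm7208. Within its own neighbourhood Ces2c was far above those pseudogenes, none of which exceeded 36 normalized counts in any library.

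The genes between the members were followed as well. Gm45909, an unclassified transcript from 93190328 to 93191358, lies inside Ces1d on the same strand. It had 97.8, 68.4 and 29 normalized counts in WT, 0 in each KO library, and 23.6, 38.4 and 49.3 in KI. Its WT mean was at least 22.2-fold higher than in KO and its KI mean at least 12.7-fold higher, against a floor of 3 reads per KO library (adjusted p = 6.25e-04 for KO against WT). The pseudogene Gm45727, between Ces1e and Ces1f, had 55.6, 42.4 and 34 in WT, 4.06, 0 and 0 in KO, and 19.3, 26.5 and 32.5 in KI. It was lower in KO (adjusted p = 0.00417). Ces2d-ps, between Ces2c and Ces2e, had 26.9, 27.9 and 36 in WT, 4.06, 0 and 0 in KO, and 8.59, 30.1 and 14.6 in KI, and was lower in KO as well (adjusted p = 0.0113). Whether reads given to Ces2d-ps came from Ces2c, with which it shares stretches, was not tested. Ces1a, Gm45910, Gm6831 and Gm8798 were under the mean of 10 needed for testing.

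Of the 6 other carboxylesterase genes tested, Ces2d-ps alone passed in KO against WT. It is the pseudogene with stretches in common with Ces2c, and the source of its reads was not tested. Ces3a, an abundant carboxylesterase gene of liver, had 132970, 136318 and 127454 in WT and 126082, 59890 and 45619 in KO (log2 fold change -0.92, adjusted p = 0.121). Ces3b had 34396, 36523 and 38003 in WT and 40210, 13391 and 9661 in KO (-1.07, adjusted p = 0.139). In both genes KO_1 was near or above WT while the other KO libraries were below. Whether these genes differed from the members was not tested. Ces2g had a mean of 2378 in WT and 1875 in KO (adjusted p = 0.358).

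Other hydrolases of esters, amides and epoxides were followed as a list of 13 genes. In KO against WT 8 of 13 were lower and 0 higher, where 4.2% of all genes tested were lower, with a list median of -0.70. The paraoxonase gene Pon1, whose product circulates on high density lipoprotein, had 45836, 43401 and 43656 in WT and 19865, 12409 and 10859 in KO (log2 fold change -1.67, adjusted p = 0.00195). The groups were far apart, with KO_1 again the highest KO library. Ephx1, the microsomal epoxide hydrolase gene, was 2.83-fold lower in KO (adjusted p = 0.00721). Afmid, which encodes kynurenine formamidase, was 3.91-fold lower (adjusted p = 0.00349), and Cmbl, which encodes carboxymethylenebutenolidase, 2.22-fold lower (adjusted p = 0.00263). In KI against WT 0 of 13 passed, and in KI against KO 5 were higher and 1 lower, where 8.45% of all genes tested were called.

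The list of triglyceride hydrolysis and VLDL assembly did not move as one. Of 13 genes tested in KO against WT, 2 were higher and 1 lower, where 8.83% of all genes tested were called, with a median of -0.01. Lipc, the hepatic lipase gene, was lower (log2 fold change -1.62, adjusted p = 0.0247). Lipa, which encodes lysosomal acid lipase, was higher by 0.61 (adjusted p = 0.0103), and Tm6sf2, which acts in VLDL lipidation, by 1.04 (adjusted p = 0.0119). The VLDL genes Apob and Mttp did not pass, at 0.22 and 0.17 (adjusted p = 0.75 and 0.528). In KI against WT 0 of 13 passed.

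Regulators known to act on carboxylesterase genes formed a list of 15 tested genes. In KO against WT 2 were lower and 0 higher, where 4.2% of all genes tested were lower. Nr1i3, which encodes the xenobiotic sensor CAR, had 7841, 6128 and 5005 in WT, 3207, 2853 and 2688 in KO, and 3206, 4246 and 5158 in KI. KO was below WT throughout (log2 fold change -1.10, adjusted p = 0.00919), and KI overlapped both groups. Nfe2l2, the gene of the oxidative stress factor NRF2, had 3144, 2347 and 2490 in WT and 1836, 1850 and 1851 in KO (-0.52, adjusted p = 0.0303). Hnf4a, Cebpa and the xenobiotic sensor gene Nr1i2 had log2 fold changes of 0.32, -0.00 and -0.40 and did not pass (adjusted p = 0.268, 0.998 and 0.183). In KI against WT 0 of 15 passed. The genes of the receptors that bind the ER retrieval signal, Kdelr1, Kdelr2 and Kdelr3, passed in no comparison.

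The pattern nearest to each family sum was sought in the 12301 genes whose mean reached 50 or more. The measure was the root mean square distance of the log2 deviations from the WT mean over the 9 libraries. For the Ces1 sum the nearest were the thymidine kinase gene Tk1 (0.28), the peroxisomal thiolase gene Acaa1b (0.31) and the fatty aldehyde dehydrogenase gene Aldh3a2 (0.32). Tk1 had 1875, 2154 and 1502 in WT, 869, 294 and 222 in KO, and 1569, 1465 and 1409 in KI. For the Ces2 sum they were the glutathione transferase gene Gstm2 (0.16), the acetyltransferase gene Nat8f1 (0.17) and the carbonyl reductase gene Dcxr (0.17). Gstm2 had 3229, 4305 and 2826 in WT, 2086, 1017 and 819 in KO, and 2513, 3110 and 2190 in KI. All of these show a KO_1 value between WT and the other KO libraries. Both sums do so too, so this follows from how the genes were picked and is no separate observation.

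Promoter sequences are shown because several members of each cluster, all 6 of Ces1 and 2 of the 4 of Ces2, were lower in KO. RefSeq promoters (GRCm38.p6, 250 bases before to 50 after the start site) were matched for 7 of the 10 members, with 8 start sites in all. Each line gives the 100 bases before the start site of a member with a larger and one with a smaller KO decrease in each family, 5′ to 3′ on the gene's strand. Capitals mark matches to the motifs listed after them.
Ces1e, chr8:93229620-93229719, minus strand: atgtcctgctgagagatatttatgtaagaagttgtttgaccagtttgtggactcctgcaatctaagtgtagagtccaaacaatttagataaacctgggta
Ces1c, chr8:93131284-93131383, minus strand: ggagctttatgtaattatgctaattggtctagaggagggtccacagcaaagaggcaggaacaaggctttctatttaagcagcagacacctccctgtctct
Ces2c, chr8:104846968-104847067, plus strand: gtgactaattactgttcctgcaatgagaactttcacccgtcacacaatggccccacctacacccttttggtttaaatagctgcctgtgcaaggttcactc
Ces2e, chr8:104926160-104926259, plus strand: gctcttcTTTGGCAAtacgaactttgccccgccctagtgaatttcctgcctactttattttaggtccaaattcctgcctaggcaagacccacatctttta
Both strands of the 300-base windows were searched. The C/EBP-type motif TTGCNNAA, read on either strand, was found in the promoters of Ces1b, Ces1c, Ces2a and Ces2e, 4 of the 7 members matched, and in 10.8% of all 32851 promoters. The windows of the Ces1b start sites overlap and hold the same match. The nuclear receptor half-site AGGTCA was in 1 member promoter, that of Ces2a, and in 16.26% of all, and TATAAA in 1, that of Ces1g, and in 13.62% of all. The HNF1 half-site GTTAAT, the HNF4-type CAAAGTCCA and the STAT-type TTCNNNGAA were in none of the member promoters and in 7.1%, 0.47% and 8.3% of all. The 250 bases before the start of Ces1b and Ces1c were 93.3% identical over 223 aligned bases, so their shared motif is not 2 separate observations. A match describes the letters in these windows and is not a binding site.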

How the data were processed

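Stranded mRNA libraries of mouse liver RNA were sequenced, per the labels' protocols. The authors deposited 1 table of normalized counts per gene, a signal in which gene counts had been divided by a size factor. Per the submitters' processing notes, TopHat2, Bowtie2, featureCounts and the GRCm38 build were used. Versions, annotation, strand setting and scaling tool are not given in the sources used here. Whole reads were recovered by undoing a step of 0.8921 to 1.1051 per library, within 0.0051 units. At least 99.985% of values per library came out whole and 6 in all did not. Totals were 59678412 to 66384374 reads.

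Genes with a mean of at least 10 over the 9 libraries (15238) were tested as log2(value + 1) with limma 3.58.1 (R 4.3.3, variance trend, all groups in 1 fit). Tests were two-sided with Benjamini-Hochberg adjustment over all genes tested. EdgeR 4.0.16 and DESeq2 1.42.0 on recovered reads, other pseudocounts, filters and scalings, covariates and left-out libraries were alternatives. The limma procedure was tested on simulated data. Positions, lengths and transcripts came from GENCODE M21, promoters from RefSeq, and identities from Biopython 1.88.

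The members and gene lists were chosen with earlier results of these data known. All members were named in each comparison. Also named were Snd1, at most the 4 called genes of each other list with the smallest adjusted p, genes inside the clusters and the 3 genes nearest each family sum. Other genes named, such as Ces3a, Apob or Hnf4a, were chosen after their values were seen. No 2 libraries of a group were duplicates (chi-square over degrees of freedom at least 62.6).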

Additional observations from a re-analysis of the deposited data

How the results depend on the processing

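Of the 10 members, 8 were called in KO against WT, 0 in KI against WT and 9 in KI against KO. In KO against WT, DESeq2 called 5, with no adjusted p for 3 members (Ces1d, Ces1f and Ces1g), and the fit without the libraries with pancreatic transcripts called 0. Leaving out single libraries gave 5 to 10 members, with 3.29% to 16.5% of all genes called. In KI against KO, DESeq2 called 5 (no adjusted p for the same 3), edgeR 3, the fit of only the 2 groups 3, the pancreas covariate 2 and the fit without pancreatic libraries 0. Leaving out single libraries gave 0 to 10, with 2.63% to 15.1% of all genes called. In KI against WT no alternative called a member. The fit without pancreatic libraries leaves 2 WT, 3 KO and 1 KI library, and the lone KI library is assumed to vary like the others. Causes of the other changes were not tested.

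The only reversed value was Ces1c in KI against WT, at 0.05 without pancreatic libraries. The log2 ratio of the summed Ces1 mean in KO against WT was -2.25, and -3.23 to -1.92 over left-out libraries, with -3.23 without KO_1. For Ces2 it was -1.34, and -2.02 to -1.09, with -2.02 without KO_1. In KI against WT the Ces1 ratio was -0.42, -0.61 to -0.31 over left-out libraries and -0.18 without pancreatic libraries (an alternative chosen after seeing the data), and the Ces2 ratio was -0.26, and -0.34 to -0.12.

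Same-numbered libraries correlated at -0.136 to 0.568 in their deviations, and differently numbered libraries of different groups at -0.622 to 0.319. The highest were WT_3 with KI_3 (0.568), which both hold pancreatic transcripts, and WT_2 with KI_2 (0.531). The labels do not say whether mice shared litters, and the title numbers were not taken as pairs. With the replicate block, 8, 0 and 9 members were called in KO against WT, KI against WT and KI against KO. All-gene calls in KO against WT were 1346, and 30 to 2516 over the alternatives. Under scaling to hepatocyte markers the median of all genes was 0.34 in KO against WT, 0.119 in KI against WT and -0.214 in KI against KO, in place of 0.001, 0.004 and 0.011. It split the KO against WT calls into 473 higher and 192 lower, against 706 and 640. The member counts of 8 and 9 were the same under it. Low counts limit Ces2b, which had 0 to 52 reads in the WT and KO libraries.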

Other observations

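Markers of other cell types in liver or nearby tissue were followed beside the members. The counts below stand beside 8.83% of all genes tested that were called in KO against WT. Of 6 neutrophil and monocyte markers tested, Mmp8 was higher in KO than in WT (adjusted p = 0.0418). Averaged over the list, KO_1 lay 0.74 above the WT mean on the log2 scale, KO_2 lay 2.68 above it and KO_3 lay 3.59 above it. Of 12 Kupffer cell and macrophage markers, Mpeg1, Marco and Cd163 were higher in KO (adjusted p = 0.00276, 0.0364 and 0.0436). The list did not rise in every KO library, and its median log2 fold change was 0.27. Its mean log2 deviation reached 1.10 for KO_3. For KO_1 (0.18) and KO_2 (-0.03) it stayed inside the WT range of -0.50 to 0.30. Of 5 cholangiocyte markers, 1 was higher in KO. None passed in KO against WT among 6 endothelial, 8 stellate cell and fibroblast, 4 lymphocyte and 5 erythroid markers, or the single enterocyte and adipocyte markers that could be tested. Enterocyte transcripts took 0.0031% to 0.006% of reads in every library. None of these lists had a gene called in KI against WT.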
